A study of Dugesia japonica with 18 samples.

Results

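The 70 gene models described here lost most of their RNA within a week of X-irradiation of the planarian Dugesia japonica, and passed 50% of that fall, on a log scale, between day 0.5 and day 1. They were chosen from 25566 gene models by their levels at 4 of the 6 sampling times. The level was the count per 1000000 counts of gene models in a library (CPM). L is the log2 ratio of the mean CPM of a day to that of day 0, with 0.5 CPM added to both. Members had at least 5 CPM at day 0, an L of -2 or less at day 7, an L at day 0.5 that had not reached 50% of the day 7 value, and an L at day 1 that had. Of the 11367 gene models with at least 5 CPM at day 0, 256 had an L of -2 or less at day 7, and 70 of these met the conditions on days 0.5 and 1.

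Whole bodies of the clonal strain SSP, about 5 mm long and starved beforehand, gave 18 libraries of 3' mRNA sequencing (Lasy-Seq, which indexes each RNA at reverse transcription and then pools the samples). There were 3 libraries, called biological replicates in the series, for each of day 0, which was not irradiated according to the design text, and days 0.5, 1, 3, 5 and 7 after X-rays of 150 Roentgens. The treatment protocol names that dose with no exception for day 0, and the design text does not list day 0.5. No unirradiated animals were sampled after day 0, so irradiation and elapsed time cannot be told apart in any comparison with day 0. How many animals went into a library is not stated in the labels. Library totals ran from 4679195 to 12605652 counts and were lowest at days 5 and 7.

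Planarians keep a population of dividing stem cells, the neoblasts, from which all other cell types are renewed. Ionising radiation removes dividing cells, and an irradiated planarian goes on for some time with the differentiated cells it already has. In the related species Schmidtea mediterranea, transcripts of the neoblasts are known to be lost sooner after irradiation than those of their progeny that have stopped dividing. The files do not pair the IDs of Dugesia japonica gene models with gene names, so no role is given to any of the 70 members. Only 2 IDs are printed, and other members are called by their rank in mean CPM at day 0. In whole-body RNA, fewer cells of a type and less RNA per cell cannot be told apart.

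Members differed widely in level at day 0, from 5.2 to 3590.0 CPM with a median of 20.4 CPM. DjGI016853-001 was the most abundant. It stood at 3509.6, 3465 and 3795 CPM in replicates 1, 2 and 3 of day 0. At day 0.5 the values were 1920.1, 1606 and 1763 CPM, and at day 1 the levels were 1250.1, 1159.7 and 1161 CPM. The libraries of day 3 gave 892, 931 and 766 CPM, those of day 5 gave 770.0, 696 and 675 CPM, and those of day 7 gave 676, 595 and 579 CPM. The libraries of days 0, 0.5, 1 and 3 did not overlap with one another, while day 5 overlapped by a small margin with day 3 and with day 7. This gene model held 41.2% of all counts of the members at day 0, and the 5 most abundant members held 70.8%.

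DjGI008245-001, of rank 16, had the largest fall to day 7 among members of at least 20 CPM at day 0. Its levels were 64.6, 57.2 and 54.4 CPM at day 0, 17.1, 9.21 and 19.9 CPM at day 0.5, and 4.59, 3.78 and 3.27 CPM at day 1. The libraries of day 3 gave 2.22, 1.95 and 2.49 CPM, those of day 5 gave 2.41, 1.72 and 3.37 CPM, and those of day 7 gave 0.55, 0.855 and 1.47 CPM. The groups of days 0, 0.5, 1 and 3 were again separate, the libraries of day 5 overlapped with those of days 1 and 3, and the lowest values were at day 7. From 3 to 9 counts per library lie behind the day 7 values. L was -5.34 at day 7 for this member and -2.54 for DjGI016853-001.

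**Figure D1:**
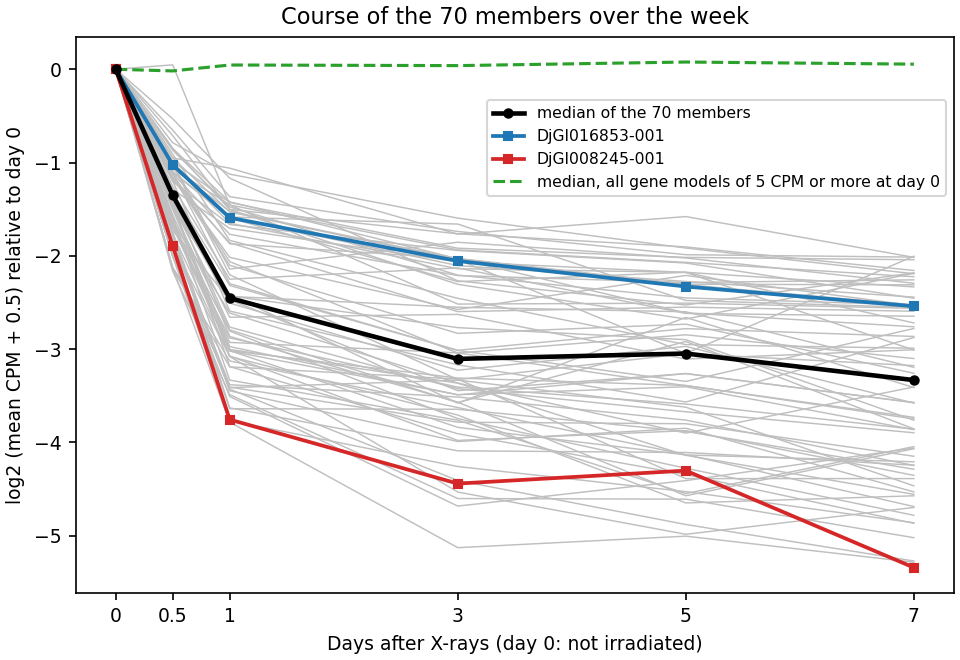
Mean level of each member relative to day 0 (vertical axis, log2 of mean CPM + 0.5, minus the day 0 value) against the day of sampling (horizontal axis, days). Grey lines are the 70 members, the black line is their median, the coloured lines are 2 named members, and the dashed green line is the median of the 11367 gene models with at least 5 CPM at day 0. The members' median went from -1.35 at day 0.5 to -2.45 at day 1 and -3.33 at day 7, while the median of all stayed between -0.02 and 0.08.

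The levels at days 0, 0.5, 1 and 7 chose the members and are given as a description. The median L was -1.35 at day 0.5 (range -2.17 to 0.05), -2.45 at day 1 (range -3.78 to -1.06) and -3.33 at day 7 (lowest -5.34, highest just under the limit of -2). On the linear scale, the median member was at 37.2% of its day 0 level at day 0.5, 14.8% at day 1 and 6.03% at day 7. Across members, the share of the day 7 fall reached was between -1.85% and 49.97% at day 0.5, with a median of 41.1%, and between 51.3% and 93.3% at day 1, with a median of 70.4%. At day 0.5, 68 members had reached at least 25% of the fall, and those of ranks 43 and 60 had not.

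The member of rank 60 was the exception in shape. Its levels were 12.6, 8.65 and 6.06 CPM at day 0 and 10.9, 8.3 and 9 CPM at day 0.5, so the 2 groups overlapped. At day 1 it was at 3.06, 2.56 and 3.38 CPM, and at day 3 at 0.585, 1.59 and 1.35 CPM, below all libraries of the days before. At day 5 it was at 1.56, 1.72 and 0.281 CPM, and overlapped with day 3.

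Members and other gene models near the limits had similar values. Next to the limit at day 0.5, the closest member had reached 49.97% of its fall and the closest gene model outside 50.1%. At day 1 the corresponding values were 51.3% and 49.8%. At day 7, the closest gene model outside had an L of -1.99, and the closest member lay less than 0.01 under the limit of -2. At the limit of 5 CPM, the means at day 0 were 5.2 and 4.93 CPM.

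The size of the fall varied among the members. L at day 7 was between -2 and -2.5 for 15 members, between -2.5 and -3 for 14, between -3 and -4 for 18 and lower than -4 for 23. Among the 7 most abundant members, L at day 7 was -2.54, -2.23, -4.21, -2.44, -2.53, -2.04 and -2.46 from rank 1 to rank 7. The 5 members that follow them in abundance had falls of -4.78, -5.27, -5.02, -4.86 and -3.86. At day 7, the member of rank 6 held 24.1% of its day 0 level, that of rank 3 held 5.34% and that of rank 9 held 2.31%.

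The member of rank 3 showed the deep course at a high level. It was at 721, 679 and 682 CPM at day 0, 227, 164 and 269 CPM at day 0.5, and 92.7, 85.9 and 77.2 CPM at day 1. At day 3 it was at 51, 47.4 and 45.6 CPM, at day 5 at 40.1, 33.9 and 43.1 CPM, and at day 7 at 37.6, 38.9 and 34.7 CPM. The first 4 groups did not overlap, and those of days 5 and 7 did.

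**Figure D2:**
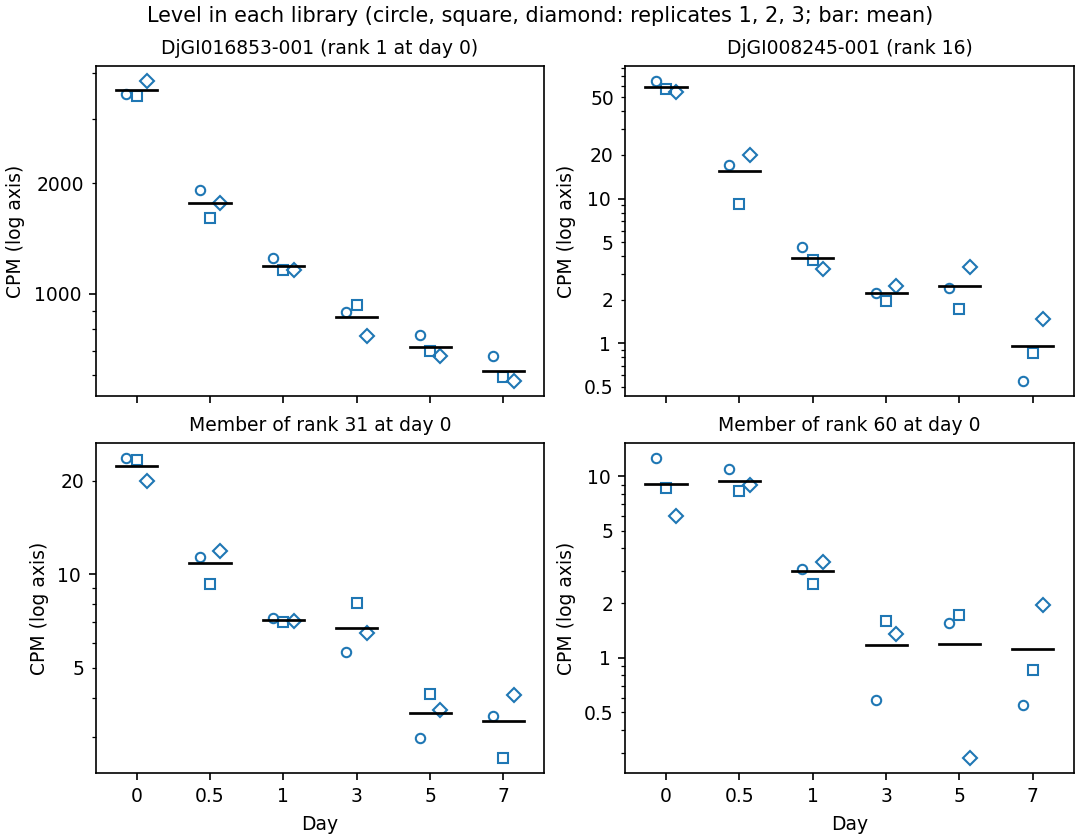
Level in CPM on a log axis (vertical) of 4 members in each of the 18 libraries, by day of sampling (horizontal). Circles, squares and diamonds are replicates 1, 2 and 3, and bars are means of 3. DjGI016853-001 fell from 3590.0 to 616 CPM and DjGI008245-001 from 58.7 to 0.959 CPM between days 0 and 7, the member of rank 31 fell again between days 3 and 5, and that of rank 60 overlapped between days 0 and 0.5.

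Days 3 and 5 were not used to choose the members. At day 3 the median L was -3.11 (range -5.13 to -1.60) and at day 5 it was -3.05 (range -5.01 to -1.58). Of the fall to day 7, the median member had completed 87.7% by day 3 and 92.8% by day 5. At day 3, 28 members stood within 90% to 110% of the fall and 2 beyond it, while 7 had not reached 75%. By day 5 these numbers were 39, 8 and 1. The level was 7.89% of that of day 0 at day 3 and 7.78% at day 5, again as the median over members. Over the 11367 gene models of at least 5 CPM at day 0, the median L was 0.04 at day 3 and 0.08 at day 5.

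In the quasi-likelihood test of edgeR, fitted over 17129 gene models with an adjusted p under 0.05 as the threshold, all 70 members were lower at day 3 than at day 0, against 18.5% of all gene models. All 70 were also lower at day 5, against 20.9% of all. In both comparisons no library of the later day overlapped with day 0 for any of the 70 members, while the same was true of 22.8% of all gene models at day 3 and 22.2% at day 5. The day 0 libraries of these comparisons also served to choose the members, so the counts are a description. The day 0 level alone was enough for every member to pass the filter on low counts. All 70 had at least 10 counts in each library of day 0, but only 37 did in those of day 3 and only 22 in those of day 7. For the comparisons that chose the members, the numbers lower than day 0 were 68 of 70 at day 0.5 (7.44% of all gene models), 70 at day 1 (12.8% of all) and 70 at day 7 (23.2% of all). At day 0.5, 67 members did not overlap with day 0 (17% of all gene models), and 45 were lower at day 1 than at day 0.5 (0.847% of all). Nothing is read from these counts.

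Of the steps between successive days after day 1, only that from day 3 to day 5 joins days that the rule did not use. From day 1 to day 3, 16 of the 70 members fell and none rose (edgeR adjusted p between 0.000274 and 0.038 for the 16), whereas 2.48% of all gene models fell and 0.543% rose. At an unadjusted p under 0.05, 39 members were lower and none was higher, against 9.03% and 6.07% of all gene models. The 3 libraries of day 3 were all below those of day 1 in 37 members and all above in none, against 12.8% and 9.51% of all gene models. The fitted log2 changes of the 16 went from -0.45 to -1.95, and in all 16 the libraries of days 1 and 3 did not overlap. The median log2 change was -0.66 over all 70 members and 0.00 over all gene models, and 65 of 70 members had a negative change, against 50.4% of all. The day 1 libraries had been used to choose members that were low at that time, so this step starts from a selected level and its counts are a description. Of the 70, 33 lacked 10 counts in at least 1 of the 6 libraries, and 3 of these 33 were among the 16. Leaving out replicate 1, 2 or 3 of day 1 lowered the count of 16 to 12, 13 or 13. For day 3 the counts were 13, 12 and 9 in the same order. The count was 7 when the few counts of ERCC control RNAs (190 to 487 per library) set the library size. The other scalings tried left it at 16.

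Of the 16, 13 were among the 20 most abundant members. The member of rank 3 fell by 0.82 ± 0.13 on the log2 scale (SE; edgeR adjusted p = 0.000274), from 85.3 ± 7.77 to 48 ± 2.73 CPM (SD, n = 3 each). DjGI016853-001 fell by 0.45 ± 0.10 (SE; edgeR adjusted p = 0.0106), from 1190.3 ± 51.8 to 863 ± 86.1 CPM. It did not pass the threshold without day 1 replicate 1 (edgeR adjusted p = 0.0724), without day 3 replicate 3 (0.106) or with ERCC scaling (0.239). DjGI008245-001 changed by -0.78 ± 0.31 and was not called (edgeR adjusted p = 0.192). The member of rank 59 had the largest fall of the 16, -1.95 ± 0.51, but only 2 to 4 counts per library at day 3, and 5 to 10 at day 5.

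From day 3 to day 5, in which neither day had been used to choose the members, 1 of 70 fell and none rose, against 1.1% of all gene models that fell and 0.0992% that rose (edgeR adjusted p under 0.05). A share of 1 in 70 is close to that background. At least 50% of the fall to day 7 had to be reached at day 1, so the rule bears indirectly on this step. At an unadjusted p under 0.05, 14 members were lower and 1 was higher, against 5.68% and 3.6% of all gene models. The median log2 change was -0.28, against 0.00 over all gene models, and 51 of 70 members had a negative change, against 50.3% of all. In 14 members the day 5 libraries were all below the day 3 libraries, and in 1 member they were all above, against 5.55% and 10.2% of all gene models. Members share the same 6 libraries, so their changes are not independent of one another.

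The 1 member that fell from day 3 to day 5 had rank 31 and is described because of that value. Its levels were 23.6, 23.2 and 20 CPM at day 0, 11.4, 9.3 and 11.8 CPM at day 0.5, 7.22, 7 and 7.06 CPM at day 1, and 5.61, 8.06 and 6.44 CPM at day 3. At day 5 it was at 2.97, 4.13 and 3.65 CPM and at day 7 at 3.48, 2.56 and 4.09 CPM. Its level was thus similar at days 1 and 3, and lower, without overlap, at days 5 and 7. The step from day 3 to day 5 was -0.96 ± 0.21 on the log2 scale (SE; edgeR adjusted p = 0.00952), and that from day 1 to day 3 was -0.08 ± 0.18 (edgeR adjusted p = 0.895). This call was lost without day 3 replicate 2, without day 5 replicate 1 and in a fit to only the 6 libraries compared.

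From day 5 to day 7 none of the 70 members passed the threshold in either direction by edgeR or DESeq2, against 1.62% of all gene models that fell and 0.981% that rose by edgeR. At an unadjusted p under 0.05, 11 were lower and 1 was higher in edgeR, against 7.97% and 7% of all gene models. The median log2 change was -0.29, against 0.00 over all gene models, and 54 members had a negative change, against 50.3% of all. The groups did not overlap in 10 members that were lower and 2 that were higher, against 9.77% and 7.19% of all gene models. The day 7 level had been used to choose the members, so these counts too are a description. DjGI016853-001 changed by -0.20 ± 0.10 (edgeR adjusted p = 0.365) and DjGI008245-001 by -1.37 ± 0.47 (edgeR adjusted p = 0.139). The last change passed the threshold with no filter beyond 1 read (edgeR adjusted p = 0.0497) and without day 0.5 replicate 2 (0.0437). Over all 3 steps after day 1, 53 of the 70 members passed the threshold in none.

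The error of the steps grew as the members' counts fell. The median SE of the log2 change over members was 0.34, 0.42 and 0.49 in the 3 steps in order of time, against 0.19, 0.20 and 0.21 over all gene models. For the 29 members with at least 10 counts in each library of days 3 and 5, the median SE of that step was 0.22 and the median change -0.23, with 23 of 29 negative. For the other 41 members the median SE was 0.53. A 95% interval (normal approximation) around the change from day 3 to day 5 excluded a 2-fold fall in 37 of the 70 members. The interval lay under 0 in 15 members. The SE behind it can be too small for falls to few counts.

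**Figure D3:**
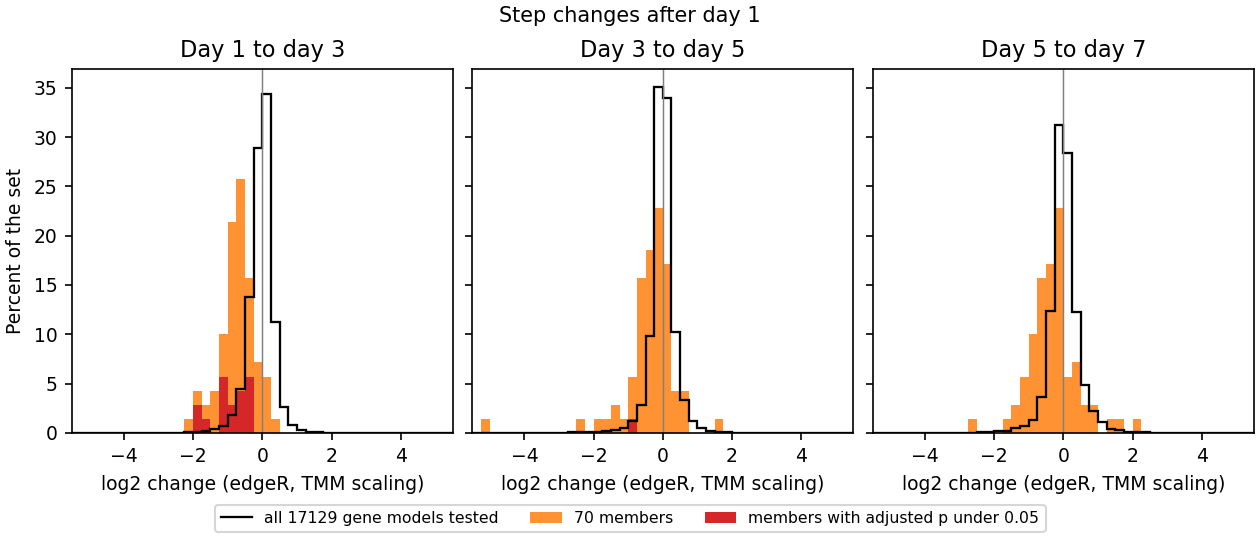
Distribution of the log2 change from one sampling day to the next (horizontal axis, edgeR with TMM scaling) as a percent of the set (vertical axis). Orange bars are the 70 members, red bars are members with an adjusted p under 0.05, and the black outline is all 17129 gene models tested. The members were shifted to the left of the outline but overlapped with it, with medians of -0.66, -0.28 and -0.29 in the 3 steps, and 16, 1 and 0 of them passed the threshold.

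The member of rank 57 fell below detection. It was at 11.7, 9.2 and 9.02 CPM at day 0, 2.52, 0.821 and 2.3 CPM at day 0.5, 0.437, 0.889 and 0.614 CPM at day 1 and 0.701, 0.733 and 0.208 CPM at day 3. It had 0 counts in all 3 libraries of day 5 and of day 7. With 3 counts over the summed counts of a group as the floor, this allows up to 0.15 CPM at day 5 and 0.185 CPM at day 7, a limit that covers counting error only. Its level was at least 66.5-fold lower at day 5 than at day 0 and at least 54.0-fold lower at day 7. This was the only member without a count in all libraries of a day.

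The step counts differed with the level of the members. Of the 36 members with at least 20 CPM at day 0, 14 fell from day 1 to day 3 (edgeR adjusted p under 0.05). Of the 34 below 20 CPM, 2 did, while 2.48% of all gene models fell. The median log2 changes were -0.60 and -0.73, with median SEs of 0.24 and 0.41. Split by the share of the fall reached at day 1, 15 of 45 members under 75% and 1 of 25 at 75% or more fell in this step, with medians of -0.81 and -0.53. The last split is made on the day 1 level itself, so a smaller later fall in the second set follows in part from the split. From day 3 to day 5 the medians of these sets were -0.23 and -0.35, and 1 and 0 members fell, against 1.1% of all gene models. The differences between these sets were not tested.

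Together the members took 0.892%, 0.84% and 0.883% of the gene-model counts in the libraries of day 0. The mean share was 0.871 ± 0.0279% (SD, n = 3 here and below), followed by 0.381 ± 0.045% at day 0.5 and 0.243 ± 0.00765% on day 1. Day 3 stood at 0.171 ± 0.00957%, day 5 at 0.146 ± 0.00647% and day 7 at 0.127 ± 0.00923%. Without the most abundant member, the other 69 took 0.512 ± 0.0251% before irradiation, then 0.205 ± 0.0301% (day 0.5), 0.124 ± 0.00423% (day 1), 0.0846 ± 0.0011% (day 3), 0.0742 ± 0.00151% (day 5) and 0.0649 ± 0.00686% (day 7). The 3 libraries of day 3 lay above those of day 5 in both sums.

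The same tests were set beside the other gene models that had at least 5 CPM at day 0 and an L of -2 or less at day 7. Of these, 64 had reached 50% of the fall at day 0.5, 45 did so between days 1 and 3, and 77 later. From day 3 to day 5, 1 of the 64, 12 of the 45 and 70 of the 77 fell (edgeR adjusted p under 0.05). In this step 1 of the 70 members and 1.1% of all gene models fell. The median log2 changes were -0.10, -0.61 and -1.94, against -0.28 in the members. Day 3 was used to part the 45 from the 77. The 77 had not reached 50% of their fall at day 3, so their falls after that day are in part fixed by the choice. The sets were also parted by the share of the fall reached at day 1, so their order in the step that follows that day is in part fixed by the choice. From day 1 to day 3, 3 of the 64, 38 of the 45 and 55 of the 77 fell. In that step 16 of the 70 members and 2.48% of all gene models fell. The medians were -0.46, -1.54 and -0.75, against -0.66 in the members. Median levels at day 0 were 10.1, 30.1 and 70 CPM in these sets and 20.4 CPM in the members, and calls come more easily at higher levels. The differences between the sets were not tested. Their summed shares are drawn in the plot of percent of counts by day.

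**Figure D4:**
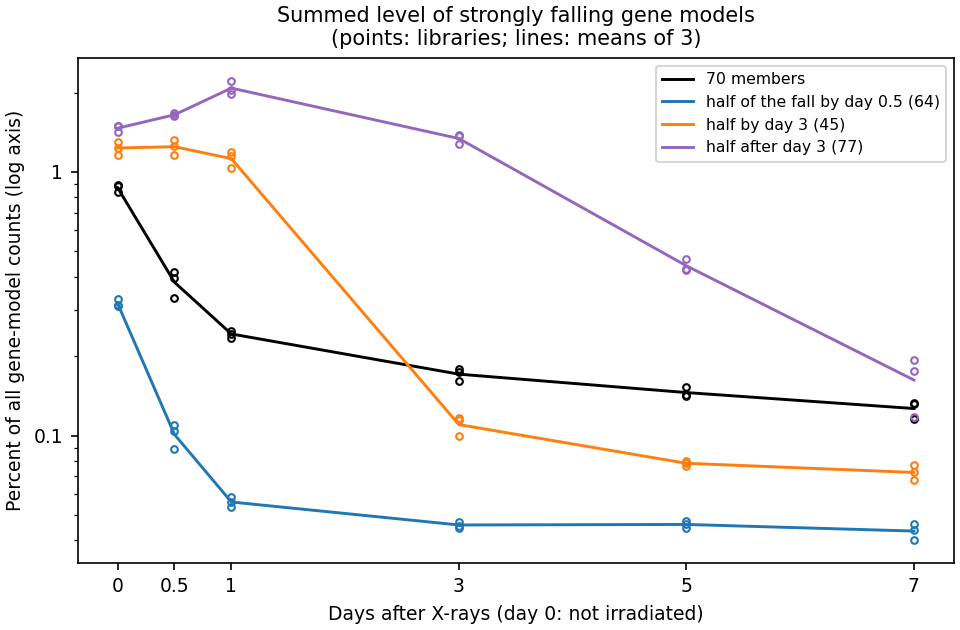
Summed level of the members and of the other strongly falling gene models as a percent of all gene-model counts (vertical log axis) by day (horizontal axis, days). Points are libraries and lines are means of 3. The 70 members (black) went from 0.871% at day 0 to 0.243% at day 1 and 0.127% at day 7, while the gene models that reached 50% of their fall later than day 1 (orange and purple) still took 1.12% and 2.08% at day 1.

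The 3 libraries of day 0.5 lay further apart in their median level over the members than those of day 1. At day 0.5, replicate 2 was the lowest of the 3 in 55 of 70 members, and replicate 1 was the highest in 46. Over the 11367 gene models of at least 5 CPM at day 0, replicate 2 was the lowest in 4031 and replicate 1 the highest in 44.5%. The median member was at 116% of its day 0.5 mean in replicate 1, 76.7% in replicate 2 and 106% in replicate 3, whereas the medians over the 11367 gene models were 102%, 99.1% and 98.9%. At day 1 the medians over members were 101%, 102% and 97.1%. Day 0, the reference of the comparisons, had replicate 1 highest in 47 of 70 members (67.1%), against 32.7% of the 11367 gene models, and its medians over members were 106%, 98.5% and 95.8%. In the 64 gene models with 50% of their fall at day 0.5, the day 0.5 medians were 105%, 85.4% and 108%.

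The coefficient of variation between the 3 libraries of day 0.5 had a median of 26% in the members and 10.9% in the 11367 gene models. At like levels (4.23 to 14.9 CPM at day 0.5), it was 26.8% in 34 members and 14.1% in 5720 other gene models. At day 0 the medians were 9.43% in the members and 9.7% in all, and at day 1, at lower levels of the members, 22.5% and 9.15%. At like levels the medians in members and other gene models were 10.8% and 9.49% at day 0, 23.2% and 18.8% at day 1, and 33.9% and 23.2% at day 3. The members' median was 33.1% on day 5, against 30.4% in the others. Day 7 had the reverse order, with 36.7% in members but 40.3% in other gene models. Replicates 1, 2 and 3 of day 0.5 had totals of 7133552, 10965351 and 10889747 counts. No single library was tested against the others of its group, and what sets these libraries apart was not tested. The limit at day 0.5 depends on them: the rule gave 58 gene models without day 0.5 replicate 1 (54 of them members), 73 without replicate 2 (69 members) and 63 without replicate 3 (60 members).

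**Figure D5:**
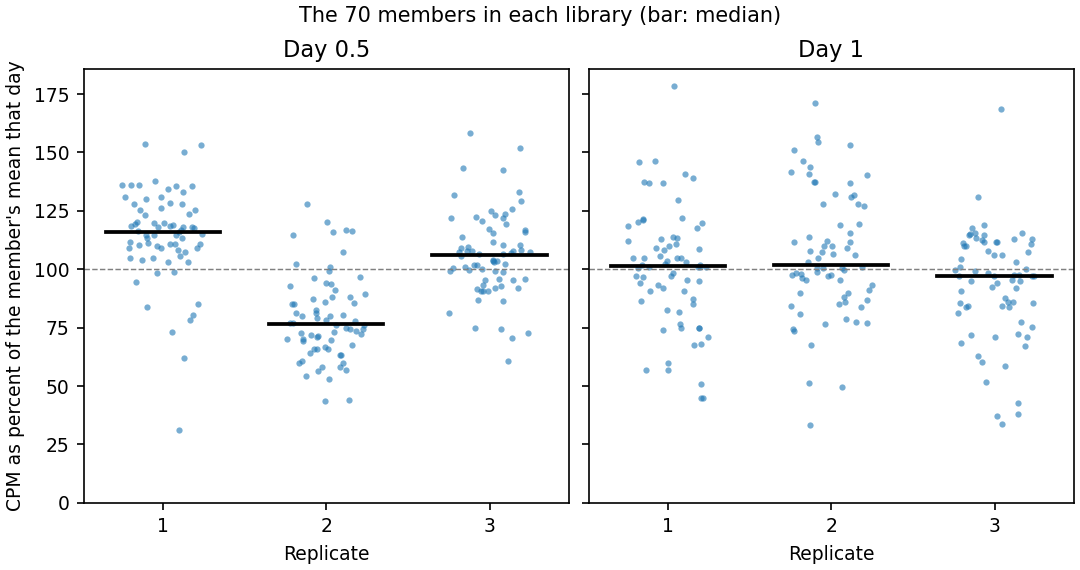
CPM of each member as a percent of its mean over the 3 libraries of a day (vertical axis) in replicates 1, 2 and 3 (horizontal axis) at day 0.5 (left) and day 1 (right). Points are the 70 members, spread sideways at random, and bars are medians. At day 0.5 the medians were 116%, 76.7% and 106%, against 101%, 102% and 97.1% at day 1.

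Some members may share reads. An ID has a first number and, after a hyphen, a second one, and 16 of the 70 members have a first number that occurs in more than 1 ID (22.9%, against 35.9% of all 25566 IDs). The members of ranks 4 and 5 have the same first number, as do those of ranks 19 and 34. The ratio of rank 4 to rank 5 was between 1.08 and 1.35 in all 18 libraries, and that of rank 19 to rank 34 was between 1.36 and 6. If reads of near-identical copies were divided between such IDs, their separate levels are uncertain. The member of rank 34 was at 34.5, 15.1 and 12.6 CPM in the 3 libraries of day 0, a wide spread for its level.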

How the data were processed

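The deposited table holds estimated counts per gene model, not normalized, in 18 libraries. Per the submitters' processing notes, Salmon, fastp 0.21.0 and BWA 0.7.17-r1188 were used, in roles and an order not stated there. No source used here gives the reference. A deposited sample table gives total counts, rows above 0 and the day, which matched the labels in 18 of 18 libraries. The 92 ERCC rows (0.004% of counts) were left out of totals and tests. Across the table, 38 values were not whole and were rounded for the tests. The rule was applied to unrounded counts per library total.

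Counts were filtered with edgeR's default by group (minimum count 10, minimum total 15), scaled by TMM and tested in edgeR 4.0.16 (R 4.3.3) with its quasi-likelihood F-test. The fit covered all 18 libraries with 1 mean per group. All p-values are two-sided and were adjusted (Benjamini-Hochberg) over 17129 gene models in each comparison. The SE of a log2 change is its size over the square root of F, an approximation that can be too small for falls to few counts. Simulated counts were also put through the fit. The outcome is not given here, and nothing about the members is read from it. Same-numbered libraries of different days deviated together little: their mean correlation was 0.0055, and 3 of 45 correlations were above 0.1. For different numbers the mean was -0.0027. Of the 18 libraries, 10 were nearest to those of their own number. No pairing was used. Alternatives included DESeq2 1.42.0.

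The members, lists, splits and alternatives were chosen with earlier results of these data known. The IDs printed are the member highest at day 0 and the one with the largest fall among those of at least 20 CPM. No member rose in a step, so no rising ID is named. Marker lists need gene names and were not used.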

Additional observations from a re-analysis of the deposited data

Results flagged for a closer look

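The change from day 0 differed between 2 sampling times in some members, by the test of the step between those times. Between days 1 and 3 it differed in 16 of the 70 members, all lower at day 3 (edgeR adjusted p under 0.05). Of all gene models, 2.48% were lower and 0.543% higher. The day 1 libraries had been used to choose the members, so this count is a description. It was 9 to 13 when 1 library of day 1 or day 3 was left out, and 7 with ERCC scaling. Between days 3 and 5 the change differed in 1 member, of rank 31 at day 0 and lower at day 5. That share is close to the 1.1% of all gene models that were lower. For DjGI016853-001, the change differed between days 1 and 3 by -0.45 on the log2 scale (edgeR adjusted p = 0.0106, and from 0.000382 to 0.239 over the alternatives).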

How the results depend on the processing

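Of 11 alternatives in scaling, filter, depth, test, pairing, libraries fitted and shared IDs, 10 gave a count of falls from day 1 to day 3 within 1.5 times of 16, and ERCC scaling gave 7. Of the 16 members, 13 were called with thinned libraries, 15 in the fit to 6 libraries (59 members tested) and 15 by DESeq2 (35 tested). Falls from day 3 to day 5 (1) became 4 with no filter beyond 1 read and 0 with only the 6 libraries compared, where 43 members were tested. Falls from day 5 to day 7 (0) became 1, DjGI008245-001, with no filter. Leaving out 1 library gave 9 to 19, 0 to 3 and 0 to 1 falls in the 3 steps. No member rose in any step under any of these alternatives, and all members tested (70, or 68 where IDs were summed) stayed lower than day 0 at days 3 and 5. With the replicate number as a block the falls in the 3 steps were 16, 1 and 0, so it changed no count. The rule gave 36 members with a day 0 limit of 20 CPM, and 80 gene models with TMM-scaled CPM (70 of them members). With 0.1 and 1 CPM added in place of 0.5 it gave 86 and 61 (68 and 59 members). The median of the 3 libraries in place of the mean gave 73 (60 members). With 1 library left out the rule gave 58 to 74. Without replicate 1, 2 or 3 of day 7 it gave 70, 73 or 72, of which 63, 64 or 61 were members. DjGI008245-001 changed by 0.13 from day 3 to day 5, and by -0.15 to 0.30 with 1 library left out, the negative value being that without day 5 replicate 3. None of these values was called. The cause of these shifts was not tested. Fewer members entered the fit to 6 libraries, yet it called 18 of 59 lower from day 1 to day 3, against 595 of all 16014 gene models. Counts were low in the later steps: the median member averaged 15.2, 11 and 7.17 counts per library at days 3, 5 and 7. Among members with at least 10 counts in all 6 libraries of a step, 13 of 37, 1 of 29 and 0 of 22 fell in the 3 steps. The shares of all gene models that fell were 2.48%, 1.1% and 1.62%. The median log2 changes of these members were -0.62, -0.23 and -0.15, with median SEs of 0.22, 0.22 and 0.24. These members were picked by counts in the same libraries that were compared. Why fewer members were called in the later steps was not tested.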

Other observations

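The first numbers of the members' IDs were counted for close neighbours, as in 2 of the other strongly falling sets. Of the 68 different first numbers among the members, 36 (52.9%) had another member's number within 100, against 17 of 47 (36.2%) in the gene models with 50% of their fall at day 0.5 and 12 of 39 (30.8%) in those that reached it between days 1 and 3. The largest run held 5 members' first numbers in a span of 127 IDs, of which 94 had at least 5 CPM at day 0. No source used here says what the order of the IDs stands for. A larger set has more chance neighbours, and the share for as many IDs drawn from all gene models was not computed. The counts are therefore given as values only, and no closeness particular to the members is read from them. The difference between the sets was not tested, and the 77 gene models with the latest fall were not counted.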
